A study of Mus musculus with 6 samples.

Results

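The microRNAs (miRNAs) described here are mir-23a, mir-27a and mir-24-2, which form a cluster on mouse chromosome 8, and their paralogs mir-23b, mir-27b and mir-24-1, which form a cluster on chromosome 13. They were chosen by name, and all 6 were found among the 898 miRNA genes of the table. Small RNA was sequenced from E14Tg2a mouse embryonic stem cells (ESCs) at passages 37 to 40. The ESC group had 3 libraries, from cells grown with leukemia inhibitory factor (LIF). The other 3 libraries were from monolayers without LIF that received 1 µM retinoic acid (RA) for 48 hours, called neuronal cells (NCs) here. All 6 libraries came from this 1 line, so each group describes 1 genetic background.

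A miRNA cluster is transcribed as a single primary RNA, from which the Drosha and Dicer enzymes cut each hairpin and then a short mature strand. Bases 2 to 8 of the mature strand, the seed, pair with target mRNAs and largely set which genes are repressed. The miR-23, miR-27 and miR-24 families have been studied mostly in endothelial, blood, muscle and fat cells. Known targets include glutaminase for miR-23, the fat cell regulator Pparg for miR-27, and the cell cycle gene E2f2 for miR-24.

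Mature 3p strands are shown first because they bear on what can be told apart between the paralogs; miR-23b-3p is not among them. Sequences are from RefSeq (build GRCm38.p6), 5′ to 3′, with the seed in capitals.
miR-23a-3p (mir-23a): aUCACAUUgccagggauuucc
miR-27a-3p (mir-27a): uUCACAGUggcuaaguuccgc
miR-27b-3p (mir-27b): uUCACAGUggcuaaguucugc
miR-24-3p (mir-24-2 and mir-24-1): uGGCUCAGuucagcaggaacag
miR-27a-3p and miR-27b-3p have the same seed and differ by 1 base, C19U, counted from the 5′ end with the base of miR-27a-3p first. The mir-24 copies give the same 3p strand, and only their 5p strands, shown next for that reason, can separate them.
miR-24-2-5p (mir-24-2): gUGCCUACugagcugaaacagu
miR-24-1-5p (mir-24-1): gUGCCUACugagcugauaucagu
These 5p strands share their first 16 bases, the seed included. The hairpins of mir-24-1 and mir-24-2 share a run of 28 bases, and those of mir-23a and mir-23b and of mir-27a and mir-27b share runs of 20 bases each. How reads that match both copies were counted is not given in the sources used here, so the separate values of paralogs are uncertain, most of all those of mir-24-1 and mir-24-2. In ESCs the mean normalized counts of mir-24-2 and mir-24-1 were 165 and 6.93. Other numbered gene copies were near equal (mir-9-1, mir-9-2 and mir-9-3 at 423, 420 and 421) or unequal (mir-128-1 and mir-128-2 at 80.0 and 0). The counts are listed per miRNA gene, and which mature strand the reads came from was not tested for the mir-24 genes or any other gene. The value of a gene is thus not the level of a given mature strand.

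The chromosome 8 cluster spans 404 bases on the plus strand (GRCm38). mir-23a lies at chr8:84208518-84208592 and mir-27a at chr8:84208672-84208758, both between annotated genes. mir-24-2 lies at chr8:84208815-84208921, and its last 2 bases overlap an exon of the long noncoding RNA Gm26532. The chromosome 13 cluster spans 792 bases, also on the plus strand, within the protein-coding gene 2010111I01Rik on the same strand and within introns of Fancc, a DNA repair gene, on the opposite strand. mir-23b (chr13:63300484-63300557) is intronic. mir-27b (chr13:63300712-63300784) and mir-24-1 (chr13:63301208-63301275) each lie whole within an exon, annotated as UTR, of a nonsense-mediated decay transcript of 2010111I01Rik, a gene for an aminopeptidase.

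The table gave the authors' group means of normalized counts, and the reads of single libraries were recovered from these means as whole numbers. The letters A, B and C order the libraries of a group from the largest size factor to the smallest. These factors, which scale each library by its depth, ran from 0.547 to 2.31, and reads over all resolved miRNAs from 97151 to 368743. Library C of each group, the shallowest, stood apart from A and B. For the 235 miRNAs whose group means both reached 20, the SD of the log2 deviation of C from A and B was 1.30 (ESCs) and 1.19 (NCs). The SD of the difference between A and B was 0.300 (ESCs) and 0.232 (NCs). Across these 235 miRNAs the deviations of C in ESCs and in NCs had a Pearson correlation of 0.818, a description over miRNAs of the same libraries. Results of the 3 better-covered members are therefore also given for A and B alone. This split of the libraries is not in the labels and was taken from these same data, so p-values that use it may be too small. Of the cell identity miRNAs listed, all 11 pluripotency miRNAs had a lower mean in NCs, and all 8 RA-linked and neural miRNAs had a higher one. These 8 include 3 gene copies each of mir-9 and mir-124. Means of the mir-124 copies were low, from 2.09 to 2.70 in ESCs and from 5.19 to 6.02 in NCs. Of the pluripotency miRNAs, mir-367 had only 3 reads in ESC library A and 0 in every other library.

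The clusters were minor components of the small RNA reads, and mir-23a and mir-23b were close to absent from them. Together the 6 genes held 0.0336% of the summed means in ESCs and 0.0133% in NCs. The RA-linked mir-10a alone made up 47.1% of the NC sum, and without it the shares were 0.0337% and 0.0252%. The members had 2176 recovered reads in all libraries, of which 98.2% belonged to mir-27a, mir-27b and mir-24-2. Mature strands are of 21 to 23 bases, so counts are compared between genes without a correction for length. How closely the counts of different genes follow their levels in the cells was not tested. In ESCs mir-27b (rank 128 of 549 miRNAs above 0) and mir-24-2 (rank 129) were the highest, with means of 169 ± 17.4 and 165 ± 46.4 normalized counts (SD, n = 3), which differ by less than their spread. mir-27a followed at 45.0 ± 26.9, mir-24-1 at 6.93 ± 1.53, and mir-23a and mir-23b at 0.965 ± 0.918 and 0.917 ± 1.10, which again differ by less than their spread. In NCs the order was mir-24-2 (112 ± 54.8), mir-27b (62.7 ± 6.14), mir-27a (36.1 ± 30.8), mir-24-1 (1.75 ± 1.58), mir-23b (0.775 ± 0.685) and mir-23a (0.145 ± 0.250). The libraries of the first 3 overlapped in NCs. Within the chromosome 8 cluster mir-24-2 made up 78.2% of the summed means in ESCs and 75.6% in NCs, whereas within the chromosome 13 cluster mir-27b made up 95.6% and 96.1%.

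**Figure D1:**
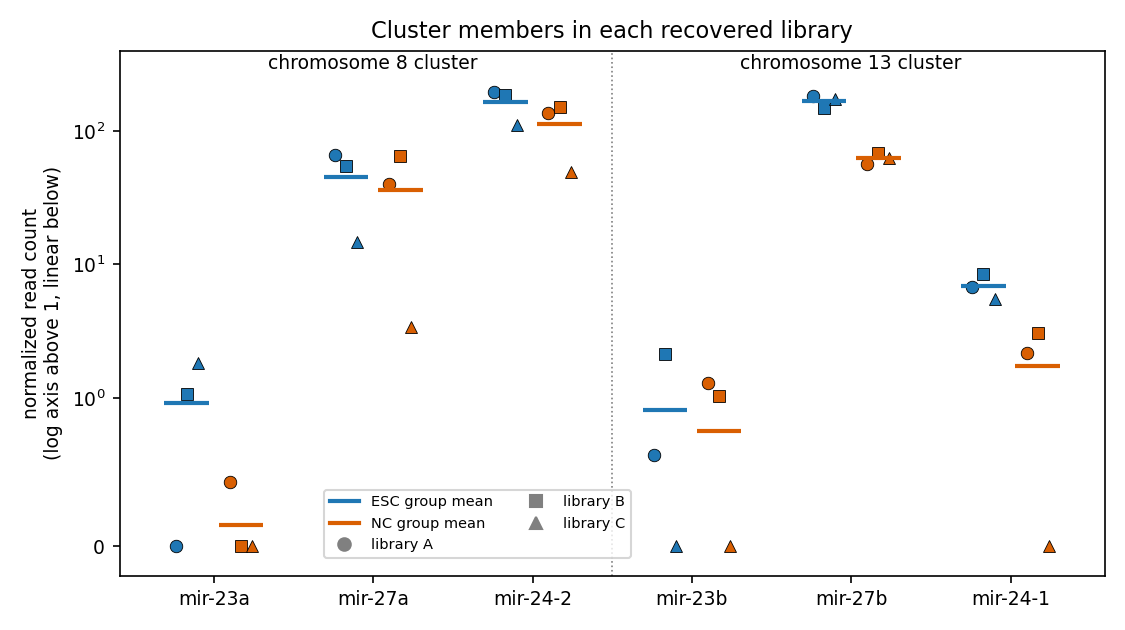
Normalized read count of each member in each recovered library (circles, squares and triangles for libraries A, B and C), with the group mean as a bar, on an axis that is logarithmic above 1 and linear below. The 3 NC points of mir-27b (56.4 to 68.6) lie below its 3 ESC points (149 to 182), while the groups overlap for mir-27a and mir-24-2, whose triangles are low.

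To determine which members changed between ESCs and NCs, limma-voom was run across the 319 miRNAs that reached 10 reads in any 3 libraries. Only mir-27a, mir-24-2 and mir-27b passed this filter, and of these 3 only mir-27b was called, lower in NCs. Of all miRNAs tested, 16.0% were called, and 5.96% were called lower in NCs, which is the background for this count of 1 in 3. The median log2 fold change (log2 FC, NC over ESC) of the 3 was -0.61, beside -0.06 for all tested miRNAs. All 6 members had a lower group mean in NCs, as did 47.5% of the 634 miRNAs detected, but for mir-23a and mir-23b these means rest on 3 and 7 reads and give no direction. In bulk RNA, fewer cells with a miRNA and less of it per cell cannot be told apart.

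mir-27b, with most reads of the chromosome 13 cluster, had 182, 149 and 175 normalized counts in ESC libraries A, B and C, and 56.4, 68.6 and 63.3 in NC libraries A, B and C. Every NC library lay below every ESC library, and library C did not stand apart in either group. Of the 311 miRNAs with a mean of 10 or more, 31.8% had groups that did not overlap, and 14.5% did so with NCs the lower group. Behind these values were 296, 140 and 96 reads in ESCs and 130, 67 and 37 in NCs. mir-27b fell by 1.43 on the log2 scale (SE 0.223, 95% interval -1.96 to -0.90), which is 2.69-fold, with an adjusted p-value of 0.00798 in limma-voom. It ranked 15 of 319 by p-value, and its log2 FC was at percentile 4.70 of all tested miRNAs. With the library set (C against A and B) as a covariate the log2 FC was -1.45 (adjusted p-value 3.89e-05 in limma-voom, where 45.1% of miRNAs were called), and in libraries A and B alone -1.46 (adjusted p-value 6.97e-06, where 50.2% were called). The adjusted p-value in limma-voom was 0.0521 without ESC library A and 0.0510 without NC library A, with log2 FC of -1.38 and -1.33.

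mir-27a, whose 3p strand has the seed of miR-27b-3p, had 66.0, 54.4 and 14.6 normalized counts in ESC libraries A, B and C and 40.3, 64.5 and 3.42 in NC libraries A, B and C. These counts, like those of mir-27b, are of the gene and were not split by strand. The groups overlapped, and library C was the lowest of each, with 8 reads in ESCs and 2 in NCs. Its log2 FC was -0.57 (SE 0.903, 95% interval -2.71 to 1.57, adjusted p-value 0.791 in limma-voom). In this fit neither a fall as large as that of mir-27b nor a rise could be excluded. With the library set as covariate the log2 FC was -0.44 (SE 0.253, adjusted p-value 0.194 in limma-voom), and in libraries A and B alone -0.38 (SE 0.227, adjusted p-value 0.172 in limma-voom). Without NC library C the log2 FC was 0.07.

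mir-24-2, the largest component of the chromosome 8 cluster, had 195, 188 and 111 normalized counts in ESC libraries A, B and C and 137, 151 and 49.6 in NC libraries A, B and C. Libraries A and B of NCs lay below those of ESCs but above ESC library C. The log2 FC of -0.61 (SE 0.470) was not called (adjusted p-value 0.512 in limma-voom). It was called with the library set as covariate, at a log2 FC of -0.55 (SE 0.171, adjusted p-value 0.0227 in limma-voom), and in libraries A and B alone, at -0.42 (adjusted p-value 0.0220 in limma-voom). In those fits 21.6% and 21.7% of the miRNAs tested were called lower in NCs. Without NC library C the log2 FC was -0.12.

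**Figure D2:**
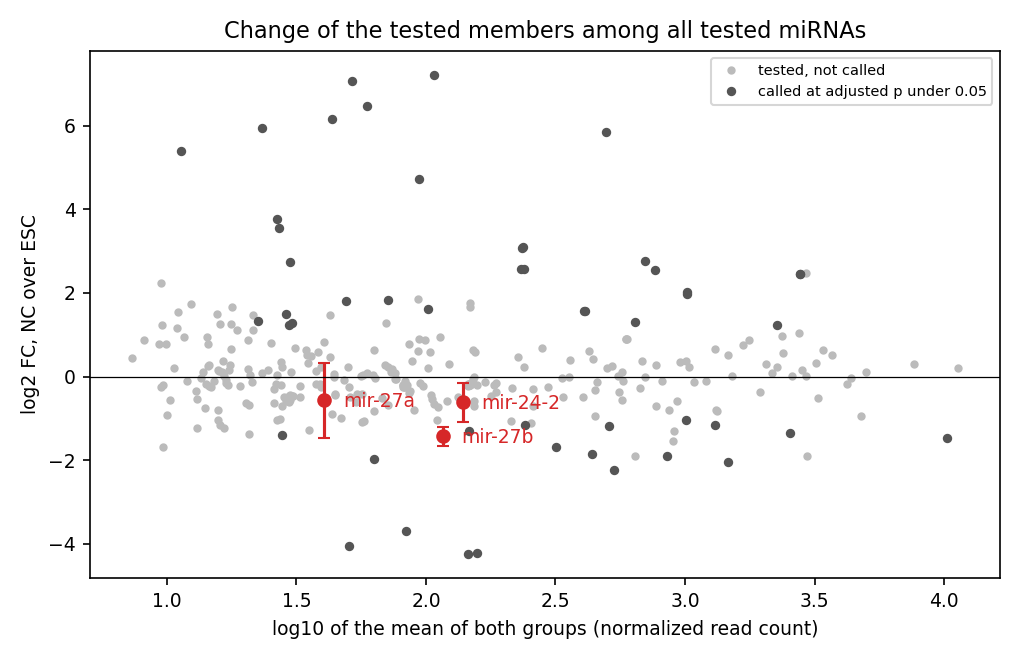
Log2 FC of NC over ESC in limma-voom against the log10 mean normalized count of both groups, for the 319 tested miRNAs, with the 3 tested members in red and their SE as bars. mir-27b sits at -1.43 with a short bar and is among the called miRNAs, whereas mir-27a (-0.57) and mir-24-2 (-0.61) sit among those not called.

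mir-24-1, the chromosome 13 copy of miR-24, did not pass the filter. It had 11, 8 and 3 reads in ESC libraries A, B and C and 5, 3 and 0 in NC libraries A, B and C, or 6.78, 8.53 and 5.48 against 2.17, 3.07 and 0 normalized counts. The NC libraries were again below the ESC libraries. Among all 613 miRNAs with a read and resolved in both groups, 20.4% had groups that did not overlap, and 9.14% did so with NCs the lower group. A count of 0 in NC library C allows up to 3 reads, which is 5.13 normalized counts, just under the 5.48 of the lowest ESC library. That ESC value itself rests on 3 reads, so within counting error the groups could overlap. From 22 reads in ESCs and 8 in NCs, the depth-adjusted NC to ESC ratio was 0.292 (exact 95% interval 0.112 to 0.681, counting error only). Without the filter its log2 FC was -1.92 (SE 0.644, adjusted p-value 0.156 in limma-voom, where 6.53% of 613 miRNAs were called, 2.12% as lower in NCs). Adding the library set to that fit gave -1.79 (adjusted p-value 0.0218 in limma-voom, where 23.3% were called, 10.4% as lower in NCs).

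mir-23a and mir-23b are the first hairpins of their clusters, and each had 3 reads or fewer in every library. mir-23a had 0, 1 and 1 reads in ESC libraries A, B and C and 1, 0 and 0 in NC libraries A, B and C. mir-23b had 1, 2 and 0 reads in the ESC libraries and 3, 1 and 0 in the NC libraries, in the same order. No fold change can be given for levels at or under this floor. The depth-adjusted NC to ESC ratio of their pooled reads was 0.402 (exact 95% interval 0.00681 to 7.71) for mir-23a and 1.07 (exact 95% interval 0.181 to 7.31) for mir-23b, for counting error only, so neither direction was detectable.

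To compare the clusters, ratios of reads were taken within each library, where size factors cancel out. The chromosome 13 cluster had fewer reads than the chromosome 8 cluster in libraries A and B, and relatively fewer in NCs. Its reads relative to those of the chromosome 8 cluster were 0.726, 0.658 and 1.41 in ESC libraries A, B and C, and 0.337, 0.338 and 1.19 in NC libraries A, B and C. The ratio was thus lower in NCs both for A and B and for C, but NC library C lay above ESC libraries A and B. The mean log2 ratio, with 0.5 reads added to each count, was -0.19 ± 0.598 in ESCs and -0.96 ± 1.05 in NCs (SD, n = 3). The difference of -0.77 was not larger than this spread (exact two-sided permutation test, p = 0.3, adjusted p = 0.6 over the 4 ratios compared). With 3 libraries against 3 this exact test cannot go below p = 0.1. This test takes no account of the library set, and most of the spread lay between C and the other libraries. Between libraries A and B the difference was -1.03, and between the C libraries it was -0.25. Most reads of the chromosome 8 cluster were of mir-24-2, whose separate value is uncertain, and mir-27b had more reads than mir-27a in every library. Without the miR-24 genes the difference was -0.58 (exact two-sided permutation test, p = 0.6). Taken from the mean of the members' log2 levels it was -0.37 (exact two-sided permutation test, p = 0.4).

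The ratio of mir-27b to mir-27a was 2.77 and 2.75 in ESC libraries A and B and 1.40 and 1.06 in NC libraries A and B. In the C libraries, where mir-27a had few reads, it was 12 in ESCs and 18.5 in NCs. The difference of the log2 ratio was -1.17 between libraries A and B and 0.40 between the C libraries. Over all libraries it was -0.65 (exact two-sided permutation test, p = 0.6, adjusted p = 0.7), and leaving out ESC library C gave 0.036 and leaving out NC library B 0.055.

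The ratio of mir-24-1 to mir-24-2 was 0.0347, 0.0455 and 0.0492 in ESC libraries A, B and C and 0.0158, 0.0204 and 0 in NC libraries A, B and C. The ratios of NC libraries A and B were below every ESC ratio, but library C was not informative, since the 3 reads that a count of 0 allows would give a ratio of 0.103, above every ESC ratio. With the 0.5 reads added, the difference of the log2 ratio was -1.28 (exact two-sided permutation test, p = 0.1, the smallest this design allows, adjusted p = 0.4). It rested on 8 NC reads of mir-24-1 and, for library C, on the 0.5 reads added to a count of 0, and it was -1.04 between libraries A and B. The ratio of mir-23b to mir-23a could not be compared, with 3 to 2 reads in ESCs and 4 to 1 in NCs (log2 difference 0.69, exact two-sided permutation test, p = 0.7, adjusted p = 0.7), and the difference was -0.23 without ESC library C.

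Ratios within a cluster were described in the same way, outside the 4 ratios compared above. mir-27b had 24.2 reads per read of mir-24-1 in ESCs (532 to 22) and 29.2 in NCs (234 to 8), a mean log2 ratio of 4.51 ± 0.401 and 5.02 ± 1.06 (exact two-sided permutation test, p = 0.6). mir-27a had 0.300 reads per read of mir-24-2 in ESCs (166 to 554) and 0.321 in NCs (158 to 492), with mean log2 ratios of -2.06 ± 0.693 and -2.18 ± 1.23 (exact two-sided permutation test, p = 0.9). Between libraries A and B the log2 differences were 0.051 for mir-27b to mir-24-1 and 0.18 for mir-27a to mir-24-2, and between the C libraries they were 1.44 and -0.71. These p-values do not show that the ratios were equal, and whether ratios within a cluster moved less than those between clusters was not tested.

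**Figure D3:**
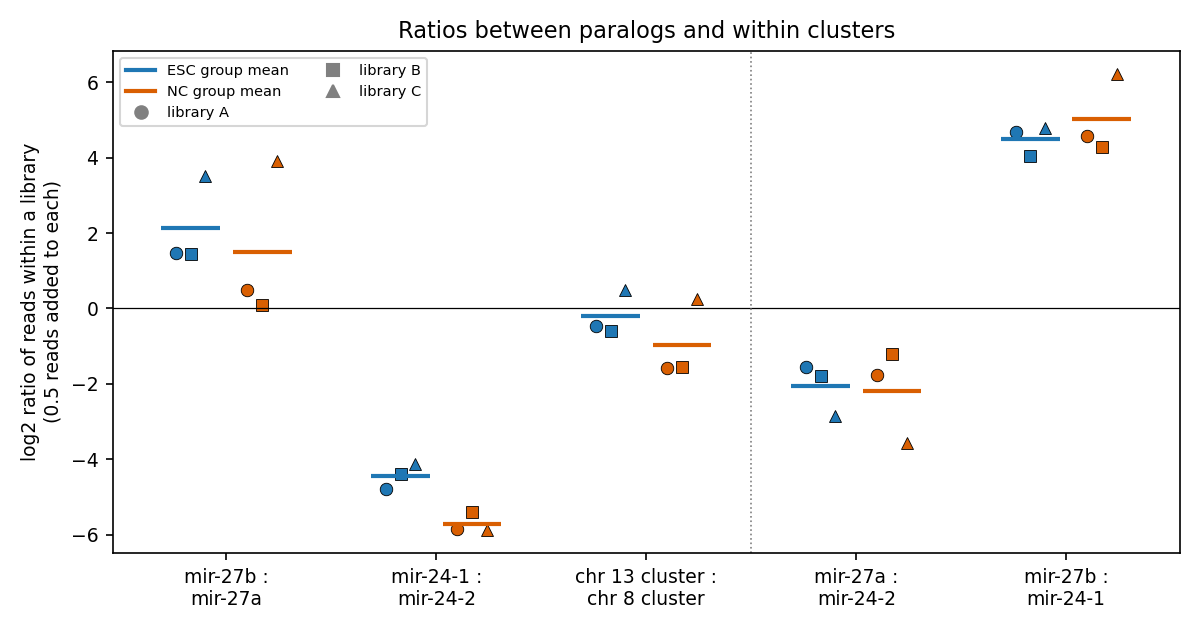
Log2 ratio of reads within each library (0.5 reads added to each count), with group means as bars, for ratios between the clusters (left of the dotted line) and within a cluster (right). The NC points A and B of mir-24-1 to mir-24-2 lie below the ESC points, the NC point C stands for 0 reads of mir-24-1 with 0.5 added, and the C libraries (triangles) lie above A and B for mir-27b to mir-27a and for the cluster sums.

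Among the members, mir-27a deviated most in library C. The log2 level in library C minus the mean of A and B was -1.96 in ESCs and -3.56 in NCs for mir-27a, and -0.78 and -1.52 for mir-24-2. On the chromosome 13 cluster these deviations were 0.087 and 0.025 for mir-27b, and -0.41 and -1.84 for mir-24-1, which had few reads. Against the 235 miRNAs, mir-27a was at percentiles 5.96 and 0.851 of this deviation in ESCs and NCs, mir-24-2 at 23.8 and 11.9, mir-27b at 58.3 and 50.2, and mir-24-1 at 37.4 and 9.36. The ESC deviation of mir-24-2 was smaller in size than the SD of 1.30 over these miRNAs. The part of this deviation in the comparison of the clusters was not tested.

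Other miRNA genes at the same loci were described next. mir-3074-2 and mir-3074-1 lie on the strand opposite mir-24-2 and mir-24-1, and their hairpins overlap those of the mir-24 genes by 83 and 68 bases. The strand of miR-3074-5p is shown because 20 of its bases lie opposite miR-24-3p at each locus.
miR-3074-5p (mir-3074-1 and mir-3074-2): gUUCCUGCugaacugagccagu
The mir-3074-1 gene had 3.70, 2.13 and 18.3 normalized counts in ESC libraries A, B and C and 9.54, 8.19 and 23.9 in NC libraries A, B and C, with a log2 FC of 1.16 (SE 0.741, adjusted p-value 0.403 in limma-voom). For mir-3074-2 the ESC libraries had 5.55, 4.27 and 12.8 and the NC libraries 8.24, 8.19 and 35.9, and it did not pass the filter. Both were highest in library C, where mir-24-2 was lowest. Whether counting used strand is not given in the sources used here. In ESC libraries A, B and C mir-3074-2 had 9, 4 and 7 reads, against 317, 176 and 61 for mir-24-2. There mir-3074-1 had 6, 2 and 10 reads, against 11, 8 and 3 for mir-24-1. Whether reads of these genes and of the mir-24 genes were mixed was not tested.

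**Figure D4:**
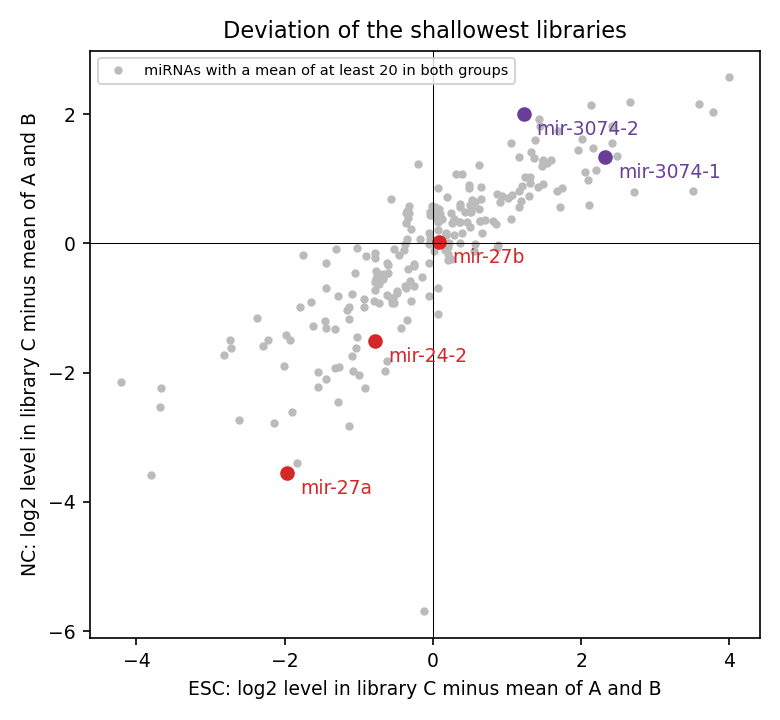
Log2 level in library C minus the mean of libraries A and B, in NCs against ESCs, for 235 miRNAs (grey), the 3 better-covered members (red) and the mir-3074 genes (purple, which lie below a mean of 20). mir-27b sits near 0 on both axes, mir-27a at -1.96 and -3.56, and the mir-3074 genes above 1 on both.

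Within 50 kb of the chromosome 8 cluster lie mir-181c (chr8:84178873-84178961) and mir-181d (chr8:84178716-84178787), on the opposite strand. They were far more abundant, with group means of 15209 and 3675 in ESCs, and both were called lower in NCs, with log2 FC of -1.47 and -1.36 (adjusted p-values 0.0223 and 0.0285 in limma-voom). Neither was called without library A or B of either group, with adjusted p-values in limma-voom of 0.0735 to 0.133 for mir-181c and 0.0863 to 0.139 for mir-181d. Their log2 FC in those fits ran from -1.55 to -1.30 and from -1.50 to -1.29. Adding the library set gave -1.49 and -1.35 (adjusted p-values 9.55e-07 and 8.08e-06 in limma-voom). The nearest of the pair is 29557 bases from mir-23a. No further miRNA of the table was annotated within 50 kb of either cluster.

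Of other miRNAs with the seed of a strand shown, mir-6369 and mir-6413 share that of miR-24-3p and were listed at 0 in both groups. The seed of miR-128-3p equals bases 3 to 9 of the miR-27 3p strands, so their target sites overlap in part.
miR-128-3p (mir-128-1): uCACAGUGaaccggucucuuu
mir-128-1, a miRNA known from the brain, had 68.4, 56.5 and 115 normalized counts in ESC libraries A, B and C and 64.2, 79.9 and 70.1 in NC libraries A, B and C, with a log2 FC of -0.05 (SE 0.308, adjusted p-value 0.935 in limma-voom). mir-128-2 was listed at 0 in both groups. Another mature strand of mir-128-1 is annotated, and which of its strands the reads came from was not tested. The counts of mir-128-1 need not be those of the strand shown.

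The miRNAs whose levels ran most like those of a member over the 6 libraries were sought among the 232 others whose group means both reached 20, by the distance between centred log2 levels. For mir-27b these were mir-329 (distance 0.440) and mir-378d (0.459), for mir-24-2 mir-369 (0.525) and mir-127 (0.599), and for mir-27a mir-136 (1.13) and mir-450b (1.17). All 6 values share the same libraries and so the same library C. The level of mir-329 ran from 305 to 348 normalized counts in the ESC libraries and from 138 to 164 in the NC libraries.

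Because these clusters are known from blood and blood vessel cells, markers of such cells were summed. The 4 blood miRNAs in the table (mir-142, mir-144, mir-150 and mir-451a) had summed normalized counts of 2243 to 13499 in ESC libraries and 859 to 1659 in NC libraries, and 3 of the 4 had a lower mean in NCs. The endothelial pair, mir-126a with mir-126b, summed to 1116 to 3711 in ESC libraries and 899 to 4211 in NC libraries, with mir-126b listed at 0 in NCs. The 5 muscle miRNAs in the table and the mesenchymal mir-143 were listed at 0 in both groups, while mir-145a, also mesenchymal, had 93.9 to 133 in ESC libraries and 56.8 to 87.2 in NC libraries, and the liver miRNA mir-122 had means of 0.411 and 0. The blood sum and mir-145a were thus lower in NC libraries, as mir-27b was, and their part in its change was not tested. The blood sum was mostly of mir-142 and mir-150, which had 186 and 7203 reads in ESC library C. Neither was called, with a log2 FC of -1.90 for each (adjusted p-value 0.348 for each in limma-voom). mir-145a was not called either, at -0.80 (adjusted p-value 0.101 in limma-voom).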

How the data were processed

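The deposited table held, per the file headers, group means of signal for ESCs and NCs. The authors had divided each library's read counts by its size factor and averaged the 3 libraries of a group; the submitters' processing notes name DESeq and build mm10. Adapter removal, aligner and counting rules were not given in the sources used here. Fold changes and p-values in the table, which are the authors' own comparison, were not used.

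Each mean adds up whole reads of 3 libraries, each divided by its size factor, so the reads were found by enumeration, up to a mean of 20000. A miRNA was resolved where 1 combination fitted the deposited decimals. This held for 540 of 549 miRNAs in ESCs and 583 of 602 in NCs, which held 24.7% and 11.2% of the summed signal, and for every member. The method was tested on simulated data. Recovered libraries carry no replicate number. The labels number 3 replicates in each group. The study's methods say that 3 replicate sets were handled separately for RNA-seq, and the study calls the replicates of its mRNA data biological. Neither the labels nor the study says whether the small RNA libraries came from separate cultures. The p-values thus measure only the spread between these samples, which may be technical.

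limma 3.58.1 (R 4.3.3) with voom weights and the recovered size factors was fitted to the 613 miRNAs resolved in both groups with a read, after the filter, with Benjamini-Hochberg adjustment and calls at an adjusted p-value under 0.05. Ratios were tested by exact permutation (scipy 1.17.1). Intervals and floors cover counting error only. RefSeq sequences matched 745 of 898 genes by symbol. Positions of neighbours and the annotation were from GENCODE M21 (GRCm38, as mm10).

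Named miRNAs were the members, those sharing a seed, mir-128 and mir-3074 genes, neighbours within 50 kb and the 2 most like each member. Members and lists were chosen with earlier results of these data known.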

Additional observations from a re-analysis of the deposited data

How the results depend on the processing

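The alternatives were the library-set covariate, the deeper libraries alone, leaving out a library, filters, scalings, limma-trend, pseudocounts and other forms of the cluster ratio. A covariate fit without a filter was added after seeing the data. No paired analysis was possible because replicate numbers are not known for single libraries. Of the members, 1 was called by limma-voom, against 2 with the covariate, 2 in the deeper libraries, 3 with the covariate and no filter, and 0 to 1 on leaving out a library. mir-27b stayed lower in NCs in every fit (-1.51 to -1.33 on leaving out a library). The log2 FC of mir-27a ran from -1.09 to 0.066 (without NC library C) on leaving out a library, and that of mir-24-2 from -0.87 to -0.12. Scaling both groups to equal totals shifted log2 FC by -0.48, and without mir-10a by 0.44, which turned the group means of mir-27a to 0.12 and of mir-23b to 0.097 and left mir-27b at -0.98. On leaving out a library, the log2 difference of the ratios ran from -1.37 to -0.43 for the clusters, from -1.85 to 0.055 for mir-27b to mir-27a, from -1.45 to -1.13 for mir-24-1 to mir-24-2 and from -0.23 to 1.36 for mir-23b to mir-23a. Depth limits mir-23a, mir-23b and mir-24-1, which had 3, 7 and 30 reads in all.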
